A study of Mus musculus with 6 samples.

Results

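Matrix metalloproteases (MMPs), ADAM and ADAMTS proteases, the ADAMTS-like proteins and their inhibitors, the TIMPs, were followed in murine brown adipocytes in which coenzyme Q (CoQ) synthesis was blocked. The set holds every gene whose symbol begins with Mmp, Adam or Timp and a digit, or with Adamts, which gave 84 of the 24537 genes in the expression table. Of these, 23 were MMPs, 33 ADAMs, 19 ADAMTS proteases, 5 ADAMTS-like genes and 4 TIMPs. RNA was detected for 64 of the 84 in at least 1 library, and 37 reached the level needed for a test, which was 0.5 RPKM or more in 3 or more libraries. RPKM is the number of reads over the exons of a gene scaled for exon length and sequencing depth.

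These enzymes hold a zinc ion in their catalytic site and are made as inactive precursors, many of which are opened by the convertase furin or by other proteases. Secreted MMPs and ADAMTS proteases cut collagens and proteoglycans of the extracellular matrix, whereas membrane-anchored ADAMs release the outer parts of growth factors and receptors, a process called shedding. TIMPs occupy the catalytic site and block it. In adipose tissue, matrix turnover accompanies the change of a preadipocyte into a fat cell and the growth of fat depots.

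The 4CBA group was made up of 3 libraries of cells treated with 4 mM 4-chlorobenzoic acid, an inhibitor of the CoQ biosynthetic enzyme COQ2, and the CTL group of 3 libraries of cells given vehicle. All cells came from 1 immortalized brown preadipocyte line that was differentiated for 6 days, and treatment began on day 4. According to the sample labels treatment lasted 48 h with fresh medium after 24 h, while the methods of the study give 24 h. The study's methods state that independent replicates were pooled for RNA, so p-values here measure only the spread between libraries, which may be technical.

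Depth was 10800000 to 11520000 reads in 4CBA libraries and 9400000 to 12260000 reads in CTL libraries (an estimate from how the smallest RPKM values are spaced). Across tested genes, libraries correlated at 0.99 within a group and at 0.91 to 0.92 between groups, and no library stood apart. All 7 adipocyte markers tested (Ucp1, Cidea, Ppargc1a, Fabp4, Adipoq, Plin1 and Pparg) were present and lower in 4CBA. Not all of these are particular to brown adipocytes. Their summed levels were 4498 to 5707 RPKM in 4CBA and 9682 to 10170 RPKM in CTL. Of 8 preadipocyte and fibroblast markers, 6 were lower, 1 did not pass and Dpp4 was at 0, with sums of 342 to 378 RPKM in 4CBA and 579 to 607 RPKM in CTL. Fabp4 made up most of the first sum and Vim most of the second, so the sums do not give the size of the change of each marker. By gene, the adipocyte markers were 1.78-fold (Fabp4) to 16.2-fold (Ucp1) lower. The 6 preadipocyte and fibroblast markers called lower were 1.56-fold (Vim) to 6.28-fold (Dlk1) lower. Of these, Thy1 reached the minimum level in CTL libraries alone. Markers of macrophages, endothelium and neutrophils each summed to at most 1.32 RPKM in any library, and Adgre1, Ptprc, Itgam, Cdh5, Tie1 and Ly6g were at 0 in all libraries. In RNA of a whole culture, fewer cells of a type and less RNA per cell cannot be told apart, and the part that these marker changes have in the results below was not tested.

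Most of the tested members changed with 4CBA, and more fell than rose. Of the 37 tested, 11 were higher in 4CBA, 24 were lower and 2, Adam1a and Adam8, did not pass the threshold (limma, adjusted p under 0.05 by the Benjamini-Hochberg method over all genes). Among all 12659 genes tested, 68.4% were called, 38.4% higher and 30.0% lower, so a call in itself was common in this comparison. Members were called higher in 29.7% and lower in 64.9% of cases. Of those lower, 3 (Adam11, Mmp9 and Timp4) reached the minimum level in CTL libraries alone and could be tested only because of them, so these counts describe the tested members and not the set of 84. Their median log2 fold change was −0.47, against a median of 0.06 over all genes tested, where a log2 fold change is 4CBA minus CTL on the scale of log2(RPKM + 1), which understates the change of low genes. By mean RPKM, 17 members were at least 2-fold lower and 1, Mmp11, was at least 2-fold higher. After scaling to a common median per library, the median of all genes moved by −0.11 and the members called became 9 higher and 25 lower, with no member changing direction.

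**Figure D1:**
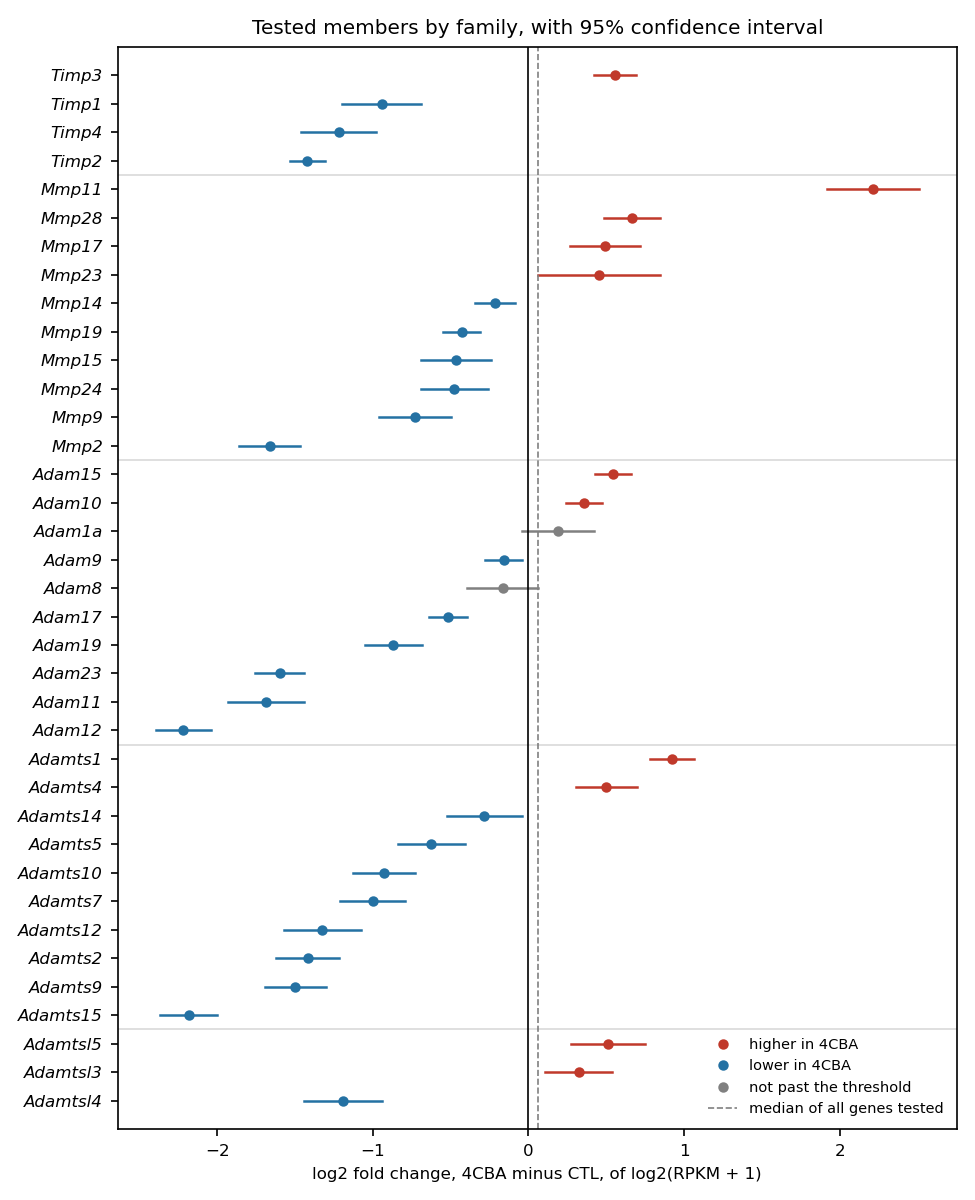
Log2 fold change (4CBA minus CTL, log2(RPKM + 1) scale) of the 37 tested members, grouped by family, with points for the estimate and bars for the 95% confidence interval. Of these, 11 lie to the right of 0 and 24 to the left beyond the threshold, and the dashed line marks the median of all genes tested at 0.06.

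Among the 4 TIMPs, 3 were lower in 4CBA and Timp3 was higher, with a median log2 fold change of −1.08. For comparison, 30.0% of all genes tested were lower and 38.4% higher. Timp2 (chr11:118301069-118355740, GRCm38), which besides inhibiting MMPs forms the complex with Mmp14 that activates pro-Mmp2, had 18.3, 18.2 and 19.2 RPKM in 4CBA libraries, against 51.7, 50.3 and 52.1 RPKM in CTL libraries. The groups lay far apart, with a narrow spread inside each. Timp2 was 2.76-fold lower in 4CBA, with a log2 fold change of −1.42 (SE 0.05, adjusted p = 5.43e-10 from limma). Timp1 (chrX:20870166-20874735), the TIMP most often induced by cytokines and growth factors, had 15.1, 12.4 and 11.7 RPKM in 4CBA libraries and 24.7, 30.3 and 23.3 RPKM in CTL libraries. It varied more among libraries than Timp2 did but the groups did not overlap, and it was 1.99-fold lower in 4CBA (log2 fold change −0.94, SE 0.11, adjusted p = 4.98e-05 from limma).

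Timp3 (chr10:86300372-86349506) is the TIMP that binds the matrix and the one that also blocks Adam17, Adamts4 and Adamts5. It had 18.2, 18.8 and 18.7 RPKM in 4CBA libraries, against 13.2, 11.6 and 12.1 RPKM in CTL libraries. Every 4CBA library was above every CTL library, and Timp3 rose 1.51-fold (log2 fold change 0.56, SE 0.06, adjusted p = 7.92e-06 from limma). Timp4 (chr6:115241892-115252205) was listed at 0 in 2 4CBA libraries and at 0.196 RPKM in the third of them, against 1.50, 1.42 and 1.50 RPKM in CTL libraries. Only the CTL libraries carried Timp4 past the filter on low values, and its log2 fold change was −1.22 (adjusted p = 1.2e-06 from limma).

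Timp4 lies within Syn2, a neuronal synapsin gene on the opposite strand, and 90 bases, 1.6% of the Timp4 transcript, are shared with it. Syn2 had 0.502 ± 0.141 RPKM in 4CBA and 7.47 ± 0.581 RPKM in CTL (SD, n = 3 each). The kit marks strand, but no source used here says whether the counting used it, so reads from the shared bases of Timp4 and Syn2 cannot be told apart. Timp1 and Timp3 lie within Syn1 and Syn3 in the same way, with 0 bases shared between the counted transcripts, although 1733 bases of the Timp3 transcript are exon in another Syn3 isoform.

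Mmp11 and Mmp2, both secreted, moved in opposite directions, Mmp11 with the largest rise among the MMPs. Of the 16 secreted MMPs, 5 were tested, 2 higher in 4CBA and 3 lower (median log2 fold change −0.43). Mmp11, or stromelysin 3, is activated inside the cell by furin and is known in mice to restrain adipose growth. It had 23.6, 25.1 and 27.8 RPKM in 4CBA libraries, against 3.56, 5.52 and 5.19 RPKM in CTL libraries. The lowest 4CBA library was above the highest CTL library by a wide margin, and Mmp11 rose 5.35-fold (log2 fold change 2.21, SE 0.13, adjusted p = 4.2e-07 from limma). In the order of mean level it was the 5th member of the set in 4CBA and the 20th in CTL.

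Mmp11 lies on chromosome 10 head to head with Chchd10, a gene for a mitochondrial protein, which itself had 583 ± 39.0 RPKM in 4CBA and 98.9 ± 9.21 RPKM in CTL (SD, n = 3 each, log2 fold change 2.55, adjusted p = 8.37e-11 from limma). Chchd10 was chosen for its place and named after its values were seen. The transcripts counted for the 2 genes share 0 bases, and 3070 bases lie between their starts, although another Mmp11 isoform runs into Chchd10. The stretch upstream of the Mmp11 start is shown because this member had the largest rise and has a neighbour that rose with it. It is the 250 bases before the start (chr10:75932503-75932752, minus strand, GRCm38.p6, from RefSeq), and it holds neither TGANTCA, the motif bound by AP-1, nor TGATGNAAN, the composite element bound by ATF4, on either strand:
Mmp11: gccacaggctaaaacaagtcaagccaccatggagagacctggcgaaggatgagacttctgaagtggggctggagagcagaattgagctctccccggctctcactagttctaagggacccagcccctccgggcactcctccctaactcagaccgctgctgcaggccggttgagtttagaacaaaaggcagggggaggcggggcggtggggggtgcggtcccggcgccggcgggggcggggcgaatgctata

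Mmp2 (chr8:92827291-92853420), gelatinase A, which cuts denatured collagen and type IV collagen, had 0.876, 0.780 and 0.873 RPKM in 4CBA libraries, against 4.72, 5.01 and 4.76 RPKM in CTL libraries. The groups were well separated, and Mmp2 was 5.73-fold lower in 4CBA (log2 fold change −1.66, SE 0.09, adjusted p = 1.28e-08 from limma). Mmp28 (chr11:83440768-83463071), or epilysin, another secreted MMP with a furin site, had 10.9, 12.0 and 12.4 RPKM in 4CBA libraries, against 6.34, 7.16 and 7.78 RPKM in CTL libraries. It was higher in each 4CBA library than in any CTL library, with a log2 fold change of 0.67 (SE 0.08, adjusted p = 1.82e-05 from limma). Of its transcript 13.6%, or 466 bases, is shared with 1700020L24Rik on the opposite strand, whose log2 fold change was 0.58, so the reads of these bases cannot be assigned to either gene.

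The remaining tested secreted MMPs, Mmp19 and Mmp9, were lower. Mmp19, which cuts basement membrane proteins, averaged 17.7 RPKM in 4CBA and 24.2 RPKM in CTL, with a log2 fold change of −0.43 (adjusted p = 2.59e-05 from limma). Mmp9, gelatinase B, averaged 0.0183 RPKM in 4CBA, where 2 libraries were at 0, and 0.692 RPKM in CTL (log2 fold change −0.73, adjusted p = 6.71e-05 from limma). As with Timp4, only CTL libraries carried Mmp9 past the filter. Neutrophils and macrophages are rich sources of Mmp9 in tissue. The neutrophil markers summed to 0.047 to 0.267 RPKM in 4CBA and 0.215 to 1.32 RPKM in CTL, where the highest sum rested on S100a8 in CTL replicate 3 (1.09 RPKM), with Ly6g at 0 throughout. The macrophage markers summed to 0.239 to 0.896 RPKM in 4CBA and 0.632 to 0.812 RPKM in CTL, sums that overlapped. These sums rested mostly on Cd14 (means of 0.523 RPKM in 4CBA and 0.599 RPKM in CTL), with Adgre1, Ptprc and Itgam at 0 throughout. All cells came from 1 brown preadipocyte line, and a part of other cells in the change of Mmp9 was not tested.

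Of the 7 membrane-bound MMPs 5 were tested, of which 2 were higher in 4CBA and 3 lower (median log2 fold change −0.21). Mmp14 (chr14:54431612-54445364), a transmembrane collagenase and the main activator of pro-Mmp2, had 22.4, 21.2 and 20.6 RPKM in 4CBA libraries, against 24.9, 24.1 and 26.0 RPKM in CTL libraries. The groups did not overlap but were close, with a log2 fold change of −0.21 (SE 0.06, adjusted p = 0.0058 from limma). Mmp17 (chr5:129584169-129611099), held at the surface by a lipid anchor, had 1.55, 1.56 and 1.67 RPKM in 4CBA libraries, against 0.727, 0.784 and 1.04 RPKM in CTL libraries. Its 4CBA values were all above its CTL values, and it rose 1.87-fold (log2 fold change 0.49, SE 0.10, adjusted p = 0.00114 from limma).

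Mmp15 and Mmp24, both transmembrane MMPs, were lower in 4CBA, with log2 fold changes of −0.47 and −0.47. In Mmp24, 637 bases are also exon of BC029722 on the opposite strand, which had a log2 fold change of −0.49. Mmp23, which is released from the membrane by furin, averaged 1.44 RPKM in 4CBA and 0.765 RPKM in CTL. Its adjusted p of 0.0402 from limma lay close to the threshold. It was 0.145 without 4CBA replicate 3, where the log2 fold change was 0.26 in place of 0.45, 0.0659 without CTL replicate 1 and 0.143 without CTL replicate 3.

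**Figure D2:**
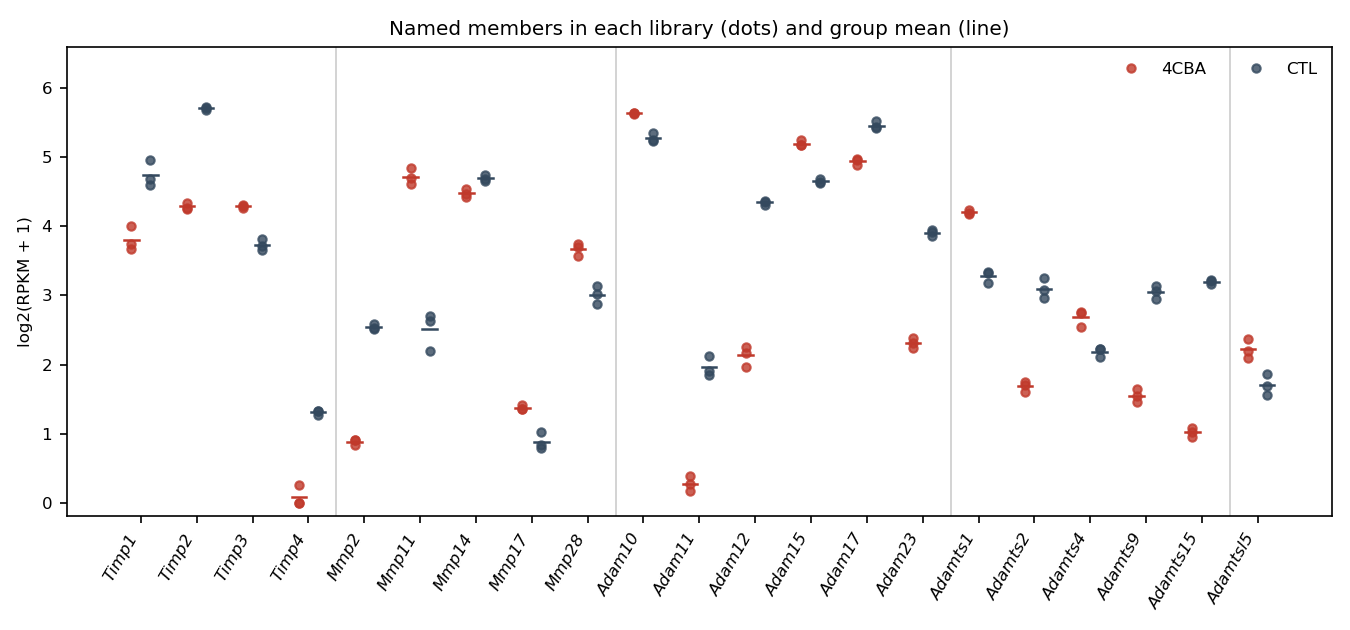
Level of the 21 named members in each library as log2(RPKM + 1), 4CBA and CTL side by side, with dots for single libraries (3 per group), lines for group means and grey lines between families. The groups of every gene shown are apart, among them Mmp11 (5.35-fold higher by mean RPKM), Adam11 (13.9-fold lower) and Timp4, which was listed at 0 in 2 4CBA libraries. Apart from 8 fixed by name, the genes were chosen for large changes among those called, so their separation follows from the choice. Groups did not overlap in 72.7% of all genes tested. Adam11 and Timp4 passed the filter through CTL libraries alone.

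The MMPs of the cluster on chromosome 9 were close to 0 in both groups. This cluster (chr9:7272514-7699585) holds 10 genes, the collagenases Mmp13, Mmp8, Mmp1a and Mmp1b, the stromelysins Mmp3 and Mmp10, matrilysin Mmp7, macrophage elastase Mmp12, enamelysin Mmp20, and Mmp27. None reached the level for a test, and 7 of the 23 MMPs, all from this cluster, were at 0 in all 6 libraries. Mmp3 was at 0 in all 4CBA libraries and averaged 0.0897 RPKM in CTL. For scale, 1 read over 2000 bases was worth 0.0408 to 0.0532 RPKM. Mmp1a and Mmp1b are close copies of each other, as are Adam26a and Adam26b and Adam6a and Adam6b, so reads could be split between them, and all 6 were at 0.

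Of the 84 members, 53 had an entry in the RefSeq promoter table, and the 250 bases before their starts were searched for TGANTCA, the AP-1 motif that reads the same on both strands. It was present in 12 of the 53 members (22.6%), against 7.82% of the 27025 genes in the table. None of 9 promoters of members higher in 4CBA held it, and 1 of 14 of members lower in 4CBA did, that of Adam19. The 12 were 8 genes of the chromosome 9 cluster, Adam20, Adam25 and Adam29, which were at 0 in all libraries, and Adam19. Of the cluster genes, 6 are shown beside Adam19 because they hold the motif close to the start yet had almost no RNA here, with the match in capitals within 47 bases of GRCm38.p6 (RefSeq, plus strand), at chr9:7272459-7272505 for Mmp13, chr9:7347310-7347356 for Mmp12, chr9:7445756-7445802 for Mmp3, chr9:7464048-7464094 for Mmp1a, chr9:7502259-7502305 for Mmp10, chr9:7692007-7692053 for Mmp7 and chr11:46055833-46055879 for Adam19:
Mmp13: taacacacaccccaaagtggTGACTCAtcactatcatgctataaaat
Mmp12: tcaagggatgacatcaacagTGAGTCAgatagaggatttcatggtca
Mmp3: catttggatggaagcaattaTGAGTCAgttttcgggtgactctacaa
Mmp1a: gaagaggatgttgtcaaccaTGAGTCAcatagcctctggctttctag
Mmp10: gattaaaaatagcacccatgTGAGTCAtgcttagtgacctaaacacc
Mmp7: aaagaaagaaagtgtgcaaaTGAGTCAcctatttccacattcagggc
Adam19: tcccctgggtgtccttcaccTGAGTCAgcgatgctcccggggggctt

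In the 6 cluster genes shown the motif began 35 to 73 bases before the start, and in Adam19 it began 131 bases before it. The ATF4 element TGATGNAAN, searched on both strands, was in 3.89% of all promoters and in 1 of the 53 members, Mmp10. A match shows only that these letters are present in the window.

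The AP-1 genes themselves moved in both directions. Of 6 tested, 3 were higher in 4CBA, 1 was lower and 2 did not pass. The share called, 66.7%, was close to the 68.4% of all genes tested. Jund averaged 79.3 ± 3.92 RPKM in 4CBA and 32.2 ± 1.04 RPKM in CTL (SD, n = 3 each, log2 fold change 1.27). Fos had a log2 fold change of 0.42, while Jun averaged 30.3 RPKM in 4CBA and 48.0 RPKM in CTL (log2 fold change −0.65, adjusted p = 4.99e-07 from limma).

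Among ADAMs, the sheddases Adam10 and Adam17 moved in opposite directions. Of 33 ADAMs, 10 were tested, of which 2 were higher in 4CBA, 6 lower and 2 not past the threshold (median log2 fold change −0.34). Adam10 (chr9:70678997-70780229), the sheddase that starts Notch signalling, had 48.5, 48.9 and 49.1 RPKM in 4CBA libraries, against 37.0, 36.9 and 39.8 RPKM in CTL libraries. It was higher in every 4CBA library, by 1.29-fold on average (log2 fold change 0.36, SE 0.05, adjusted p = 7.54e-05 from limma). Adam17 (chr12:21323509-21373632), which releases tumor necrosis factor and ligands of the epidermal growth factor receptor, had 30.3, 30.4 and 28.7 RPKM in 4CBA libraries, against 41.8, 42.4 and 44.9 RPKM in CTL libraries. It was lower in every 4CBA library (1.45-fold, log2 fold change −0.52, SE 0.05, adjusted p = 4.92e-06 from limma).

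The ratio of Adam10 to Adam17 was 1.60, 1.61 and 1.71 in 4CBA libraries and 0.886, 0.870 and 0.885 in CTL libraries, so the more abundant of these sheddases by RPKM was Adam10 in 4CBA and Adam17 in CTL. The end of Adam17 overlaps Iah1 on the opposite strand over 303 bases, 6.8% of its transcript, and Iah1 did not pass the threshold (log2 fold change −0.16, adjusted p = 0.0693 from limma). Adam15 (chr3:89338542-89349996), which carries an integrin-binding disintegrin domain, had 35.1, 35.1 and 37.1 RPKM in 4CBA libraries, against 24.1, 24.9 and 23.8 RPKM in CTL libraries. Its groups were separate and it rose 1.48-fold (log2 fold change 0.54, SE 0.05, adjusted p = 2.65e-06 from limma).

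Adam12, Adam11 and Adam23 fell most among the ADAMs. Adam12 (chr7:133883199-134232146), or meltrin alpha, a protease expressed in muscle and fat precursors, had 3.76, 2.92 and 3.50 RPKM in 4CBA libraries, against 19.5, 18.8 and 19.8 RPKM in CTL libraries. The groups were far apart, with a 5.71-fold lower mean in 4CBA (log2 fold change −2.22, SE 0.08, adjusted p = 4.98e-10 from limma). Adam11 and Adam23 lack a working catalytic site and are known in nerve cells as receptors of secreted LGI proteins.

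Adam11 (chr11:102761439-102780262) had 0.119, 0.199 and 0.308 RPKM in 4CBA libraries and 3.34, 2.59 and 2.76 RPKM in CTL libraries, a 13.9-fold lower mean in 4CBA, and only CTL libraries carried it past the filter. Adam23 (chr1:63445891-63596276) had 4.23, 3.70 and 3.95 RPKM in 4CBA libraries and 14.1, 13.5 and 14.4 RPKM in CTL libraries (log2 fold change −1.60, adjusted p = 2.81e-09 from limma). In neither gene did the groups overlap. Of the rest, Adam19, or meltrin beta, was 2.12-fold lower. Adam9, or meltrin gamma, had the highest mean of the set in both groups, 52.3 RPKM in 4CBA and 58.4 RPKM in CTL.

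Adam9 was called lower at a log2 fold change of −0.16 (adjusted p = 0.023 from limma), a call that was lost without 4CBA replicate 3 (0.069), CTL replicate 1 (0.0605) or CTL replicate 3 (0.0766). Adam1a, which has a close copy in Adam1b, averaged 0.661 RPKM in 4CBA and 0.460 RPKM in CTL (adjusted p = 0.133 from limma), and Adam8 0.750 RPKM in 4CBA and 0.961 RPKM in CTL (adjusted p = 0.182 from limma). Adam8 was the tested member whose groups overlapped, while 36 of the 37 tested members had groups that did not, in a comparison in which 72.7% of all genes tested had none. Of the ADAMs, 13 were at 0 in all libraries, among them those of the chromosome 8 group Adam24, Adam25, Adam20 and Adam39, which are known from the testis.

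Most of the ADAMTS proteases tested fell, while 9 of the 19 were not tested. Lower in 4CBA were 8 of the 10 tested, or 80.0%, against 30.0% of all genes tested. The median log2 fold change of the 10 was −0.96, against 0.06 over all genes. The exceptions were Adamts1 and Adamts4. Both cut versican and aggrecan, the large hyaluronan-binding proteoglycans, and of the 5 tested ADAMTS with this activity 2 were higher and 3 lower. Adamts1 (chr16:85793827-85803113) had 17.1, 17.8 and 17.4 RPKM in 4CBA libraries, against 8.98, 8.11 and 9.14 RPKM in CTL libraries. It rose 1.99-fold with no overlap (log2 fold change 0.92, SE 0.06, adjusted p = 1.38e-07 from limma), whereas Adamts5, its neighbour 53060 bases away, averaged 0.690 RPKM in 4CBA and 1.60 RPKM in CTL (log2 fold change −0.62, adjusted p = 0.00013 from limma).

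Adamts4 (chr1:171250421-171260637) had 5.74, 4.82 and 5.77 RPKM in 4CBA libraries, against 3.31, 3.68 and 3.65 RPKM in CTL libraries. Its 4CBA values were all the higher ones (log2 fold change 0.50, SE 0.09, adjusted p = 0.000356 from limma).

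Adamts15 and Adamts9, also proteoglycan-cutting enzymes, fell sharply. Adamts15 (chr9:30899155-30922452) had 1.11, 1.03 and 0.940 RPKM in 4CBA libraries, against 7.96, 8.36 and 8.28 RPKM in CTL libraries. This was a 7.98-fold lower mean with the groups far apart (log2 fold change −2.18, SE 0.08, adjusted p = 7.79e-10 from limma). Adamts9 (chr6:92772699-92943492) had 1.76, 1.91 and 2.12 RPKM in 4CBA libraries, against 7.76, 6.69 and 7.35 RPKM in CTL libraries. Adamts9 was 3.77-fold lower in 4CBA, again with no overlap (log2 fold change −1.50, SE 0.09, adjusted p = 3.44e-08 from limma).

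Adamts2 and Adamts14 remove the N-terminal propeptide of procollagens so that collagen can form fibrils, and both were lower. Adamts2 (chr11:50602084-50807573) had 2.26, 2.04 and 2.34 RPKM in 4CBA libraries, against 6.84, 8.51 and 7.46 RPKM in CTL libraries. It was 3.44-fold lower in 4CBA (log2 fold change −1.42, SE 0.09, adjusted p = 7.8e-08 from limma). Adamts14 had a log2 fold change of −0.28 (adjusted p = 0.0392 from limma) that did not pass without 4CBA replicate 2 (0.132), 4CBA replicate 3 (0.0745), CTL replicate 1 (0.14) or CTL replicate 3 (0.0996). The third enzyme with this activity, Adamts3, averaged 0.0320 RPKM in 4CBA and 0.138 RPKM in CTL and was not tested.

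Adamts7 and Adamts12, known for cutting the cartilage protein COMP, were 4.06-fold and 4.63-fold lower in 4CBA, and Adamts10, which binds fibrillin microfibrils, was 2.22-fold lower. The ADAMTS-like genes code for secreted proteins without a protease domain, several of which bind fibrillin. Of 3 tested, Adamtsl5 and Adamtsl3 were higher in 4CBA and Adamtsl4 was 3.93-fold lower, where 38.4% of all genes tested were higher and 30.0% lower. Adamtsl5 (chr10:80339110-80348412) had 3.29, 4.19 and 3.56 RPKM in 4CBA libraries, against 1.96, 2.64 and 2.23 RPKM in CTL libraries. Its groups did not overlap (log2 fold change 0.51, SE 0.11, adjusted p = 0.00126 from limma). The call of Adamtsl3 (log2 fold change 0.32, adjusted p = 0.0121 from limma) was lost after scaling to a common median per library (log2 fold change 0.21, adjusted p = 0.0731).

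Summed over each family, inhibitor RNA was lower in 4CBA and MMP RNA was higher. TIMPs summed to 51.7, 49.4 and 49.9 RPKM in 4CBA libraries, against 91.1, 93.7 and 89.0 RPKM in CTL libraries. MMPs summed to 81.3, 82.9 and 86.0 RPKM in 4CBA libraries and 71.4, 74.4 and 74.6 RPKM in CTL libraries. The 4CBA sums were all below the CTL sums for TIMPs and all above them for MMPs, and no test was run on the sums. The ratio of 4CBA to CTL was 1.14 for MMPs and 0.551 for TIMPs. After scaling to a common median per library it was 1.05 for MMPs and 0.508 for TIMPs, so the MMP difference was smaller.

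The ratio of summed TIMPs to summed MMPs was 0.604 ± 0.0286 in 4CBA and 1.24 ± 0.0439 in CTL (SD, n = 3 each). Mmp11 alone made up 30.5% of MMP RPKM in 4CBA and 6.46% in CTL. Without Mmp11, MMPs summed to 57.9 RPKM in 4CBA and 68.7 RPKM in CTL, and the ratio was 0.868 in 4CBA and 1.33 in CTL. The sum of MMPs was thus higher in 4CBA through this one gene, whereas the lower ratio of TIMPs to MMPs was seen with and without it.

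The MMP with the highest mean was Mmp11 in 4CBA and Mmp14 in CTL. By mean, Timp2, Adam9 and Adamts1 led their families in both groups with different shares. In CTL replicate 2, however, Mmp19 was above Mmp14 and Adamts15 above Adamts1, and in 4CBA replicate 2 Timp3 was above Timp2. Timp2 made up 36.9% of TIMP RPKM in 4CBA and 56.3% in CTL, and Timp3 was close behind it in 4CBA, both at 18.6 RPKM. Mmp14 had 25.7% of MMP RPKM in 4CBA and 34.0% in CTL. Adamts1 took 51.3% of ADAMTS RPKM in 4CBA and 17.4% in CTL, in a family whose sum was 34.0 RPKM in 4CBA and 50.3 RPKM in CTL. ADAMs summed to 179 ± 2.56 RPKM in 4CBA and 208 ± 5.27 RPKM in CTL (SD, n = 3 each), and Adam9 had a like share of them, 29.2% in 4CBA and 28.0% in CTL.

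**Figure D3:**
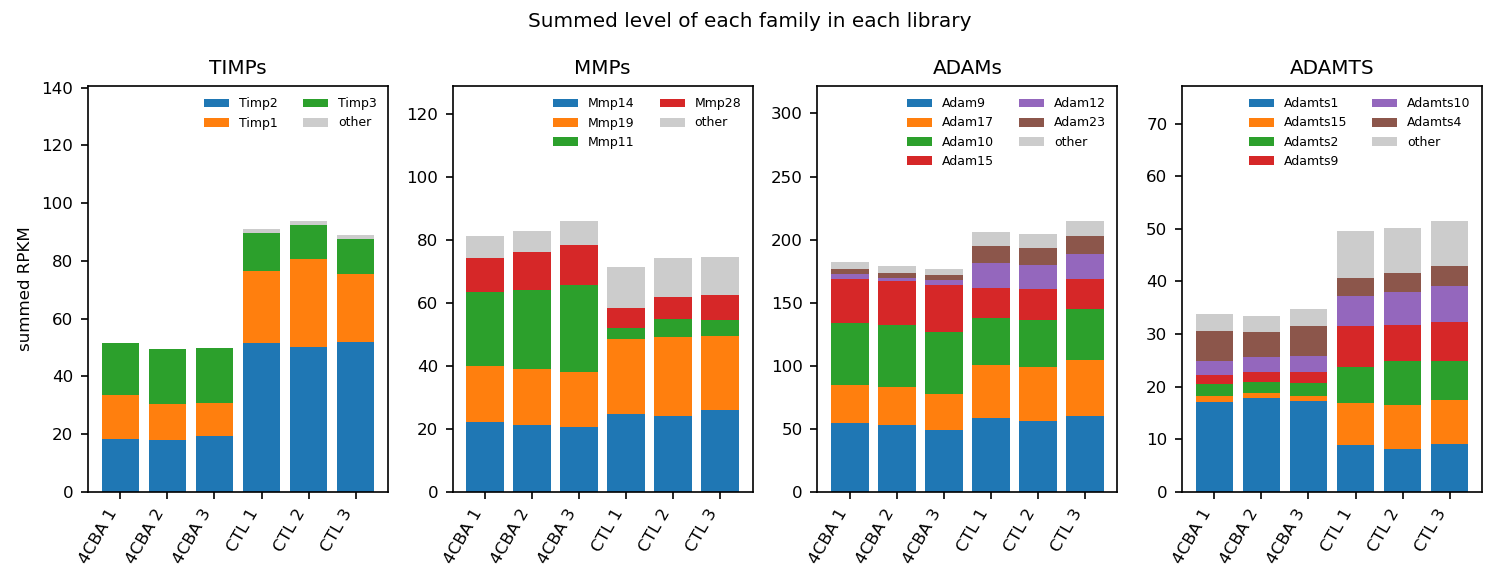
Summed RPKM of TIMPs, MMPs, ADAMs and ADAMTS proteases in each of the 3 4CBA and 3 CTL libraries, stacked by member, with less abundant members in grey. TIMP bars are lower in 4CBA (about 50.3 RPKM on average, against 91.3 in CTL), the Mmp11 segment is larger, and Adamts1 fills 51.3% of the ADAMTS bar in 4CBA.

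Genes that act with these proteases moved both ways. Of 24 tested regulators and partners, 10 were higher in 4CBA, 11 lower and 3 did not pass (median log2 fold change −0.07). This was 41.7% higher and 45.8% lower, against 38.4% and 30.0% of all genes tested. Among those lower, Fap reached the minimum level in CTL libraries alone, so the counts describe the tested genes and not the whole list. Plaur, the surface receptor that concentrates urokinase, averaged 8.85 ± 0.442 RPKM in 4CBA and 1.62 ± 0.724 RPKM in CTL (SD, n = 3 each). Every 4CBA library was above every CTL library, with a log2 fold change of 1.94 (adjusted p = 4.47e-06 from limma). The plasminogen activators Plat and Plau, named after their values were seen, were lower, with log2 fold changes of −1.55 and −0.87.

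Pcolce, which enhances the removal of the C-terminal propeptide of procollagen, averaged 43.8 ± 4.04 RPKM in 4CBA and 282 ± 1.56 RPKM in CTL (SD, n = 3 each, log2 fold change −2.66). Its relative Pcolce2 was 4.83-fold lower, and Bmp1, the protease both assist, also named after its values were seen, was 2.58-fold lower. Together with Adamts2 these are enzymes and helpers of both ends of the procollagen chain. Furin, which opens the precursors of Mmp11, Mmp28 and many ADAMs, had a log2 fold change of −0.21 (adjusted p = 0.00967 from limma). Reck, a membrane-anchored MMP inhibitor, averaged 1.23 RPKM in 4CBA and 1.67 RPKM in CTL, with an adjusted p of 0.0373 from limma that ranged from 0.0837 to 0.123 without 4CBA replicate 1, 4CBA replicate 2, CTL replicate 1 or CTL replicate 2.

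Among the partners, several genes code for carriers of the sheddases. Rhbdf2, an iRhom that takes Adam17 to the surface, averaged 3.58 ± 0.623 RPKM in 4CBA and 1.45 ± 0.202 RPKM in CTL (SD, n = 3 each, log2 fold change 0.90, adjusted p = 2.86e-05 from limma). The other iRhom, Rhbdf1, had a log2 fold change of 0.53, and Frmd8, which binds and stabilizes iRhoms, did not pass (−0.05, adjusted p = 0.492 from limma). Among the tetraspanins that escort Adam10, Tspan5, Tspan15, Tspan17 and Tspan33 were higher with log2 fold changes of 0.87, 0.88, 0.38 and 0.83, while Tspan14 did not pass and Tspan10 was not tested. Rhbdf1, Frmd8 and the tetraspanins were named after their values were seen.

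Of 29 tested substrates, 8 were higher in 4CBA, 16 lower and 5 did not pass (median log2 fold change −0.42). Those higher were 27.6% and those lower 55.2%, against 38.4% and 30.0% of all genes tested. Among those lower, Eln and Dcn reached the minimum level in CTL libraries alone, and among those higher, Areg reached it in 4CBA libraries alone. These counts therefore describe the tested substrates and not the whole list. Fibrillar collagens fell furthest, with Col1a1 at 6.96 ± 1.06 RPKM in 4CBA and 118 ± 10.3 RPKM in CTL and a log2 fold change of −3.90 (SD, n = 3 each). Col3a1 had a log2 fold change of −3.78. Vcan, versican, the proteoglycan cut by Adamts1, Adamts4, Adamts9 and Adamts15, averaged 3.94 ± 0.436 RPKM in 4CBA and 26.7 ± 1.30 RPKM in CTL (SD, n = 3 each, log2 fold change −2.49).

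The ligands of the epidermal growth factor family among the substrates moved in different ways. Hbegf, which Adam17 sheds, was at 39.5 ± 1.47 RPKM in 4CBA and 18.9 ± 0.835 RPKM in CTL (SD, n = 3 each, log2 fold change 1.03). Areg, amphiregulin, had 1.79, 2.51 and 2.29 RPKM in 4CBA libraries and 0.134, 0.276 and 0.262 RPKM in CTL libraries (log2 fold change 1.38). Only the 4CBA libraries carried Areg past the filter on low values. Ereg had a log2 fold change of 0.52 (adjusted p = 0.00147 from limma), Tgfa did not pass (−0.01, adjusted p = 0.949) and Nrg1 was lower (−0.73, adjusted p = 0.000454), all 3 named after their values were seen. Dlk1, a preadipocyte protein that is also shed by Adam17, was 6.28-fold lower, at 4.16 RPKM in 4CBA and 26.1 RPKM in CTL. Dlk1 is also one of the preadipocyte markers, of which 6 of 7 tested were lower.

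Of the 47 members not tested, 20 were at 0 in all 6 libraries and 27 were above 0 in at least 1, the highest single value being 0.736 RPKM for Adam22. In 6 of the 27 above 0, Adam22, Adam5, Adamts3, Adamts6, Adamtsl1 and Mmp3, every 4CBA library was below every CTL library. In 1 of the 27, Adamts16, every 4CBA library was above. Of all 5228 genes above 0 and not tested, 10.7% lay below in this way and 7.82% above. At this depth, smaller differences in these genes were not detectable. Among the tested members, 29 reached the minimum in all 6 libraries.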

How the data were processed

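Messenger RNA was sequenced from 3 4CBA and 3 CTL libraries, grouped by their labels. According to the methods and the submitters' processing notes, the authors mapped reads with STAR to mm10 and counted them with HOMER over 1 RefSeq isoform per gene. The values used are the RPKM values deposited by the authors. A second deposited table holds log2 values of the same libraries, which served as an alternative, and the fold changes and p-values of the authors' DESeq2 comparison, which were not used. There, 19 of the 84 members were represented by another isoform. No source used here gives the transform behind the log2 values or the tool versions.

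Genes that reached 0.5 RPKM in 3 or more libraries were tested with limma 3.58.1 (R 4.3.3, trended and robust variance) on log2(RPKM + 1), and p-values were adjusted over the 12659 genes tested. The procedure was run on simulated data with far fewer changed genes than were called here, so that run does not measure its errors here. RPKM hides read counts, so depth was only estimated. Alternatives were a pseudocount of 0.1, no filter, a minimum of 5 RPKM, scaling to the same median, a replicate block, the deposited log2 values, limma without trend and robust estimation, and each library left out.

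Values in every library were given for Timp1 to Timp4, Mmp2, Mmp14, Adam10 and Adam17 and for the 8 members in each direction with the largest log2 fold change among those called with a mean of at least 1 RPKM in the higher group. Of the other lists, the 2 largest changes in each direction were named, with Furin, Reck, Rhbdf2, Vcan and Dlk1. Some genes that these rules or their overlap with a member would name are not reported here. Members and lists were chosen with earlier results of these data known. Positions are from the GENCODE annotation of GRCm38 and promoters from RefSeq. Protein sequences were not analysed here.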

Additional observations from a re-analysis of the deposited data

How the results depend on the processing

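Of 463 values of tested members under the alternatives, 445 kept their direction and their side of the threshold, 17 lost the call, 1 gained it and 0 changed direction, and 31 of the 35 called members kept the call in every alternative run for them. For 18 of the 37 tested members the minimum of 5 RPKM gave no value. The calls lost were those of Adam9, Adamts14, Adamtsl3 and Mmp23, and Adam8 passed with scaling (log2 fold change −0.27). Values of low genes depended on the scale, with Timp4 at −3.45, Adam11 at −3.32 and Mmp9 at −2.76, beyond Mmp2 at −2.39, under a pseudocount of 0.1. With a minimum of 5 RPKM fewer genes were tested, and 6 members were higher and 13 lower, with 1 secreted MMP lower, 0 membrane-bound MMPs higher and 1 lower, 1 ADAMTS higher and 4 lower, 1 proteoglycan-cutting ADAMTS higher, 1 procollagen-cutting ADAMTS lower and 5 substrates higher. The membrane-bound MMPs higher numbered 1 with no filter, with scaling, without trend and robust estimation and with the replicate block, and 1 to 2 when a library was left out, since Mmp23 lost its call. The procollagen-cutting ADAMTS lower numbered 1 to 2 when a library was left out. ADAMTS-like genes lower numbered 2 with no filter and those higher 1 with scaling, and AP-1 genes lower numbered 2 with scaling and with the deposited log2 values.

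Scaling changed the calls over all genes to 3907 higher and 4767 lower, against 4860 and 3804, so that 45.04% of calls were higher, against 56.09%. The ratio of summed levels of 4CBA to CTL with scaling was 1.05 for MMPs, 0.508 for TIMPs, 0.792 for ADAMs and 0.622 for ADAMTS, against 1.14, 0.551, 0.860 and 0.675 without it. Deviations of libraries with the same number correlated at −0.07, −0.03 and −0.03, so no shared deviation by number was seen. These values cannot tell whether samples with the same number were handled together. With the replicate block 4765 genes were higher and 3734 lower, and 10 members were higher and 24 lower, with the calls of Mmp23 (adjusted p = 0.098 from limma) and Reck (0.0626) lost. Without a filter 5 further members were called lower, Adam22, Adam5, Adamts3, Adamts6 and Adamtsl1. At these depths genes below about 0.5 RPKM rest on few reads.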
